A study of Mus musculus with 13 samples.

Results

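E proteins are basic helix-loop-helix transcription factors, here Tcf3 (E2A), Tcf4 (E2-2) and Tcf12 (HEB), and the Id proteins Id1, Id2 and Id3 are their inhibitors. E proteins bind DNA as dimers at E-box sequences. Id proteins dimerise with them but lack the basic DNA-binding region, so an E protein held by an Id protein cannot bind. In B cells, E proteins act in lineage commitment, immunoglobulin gene activity and the germinal centre and plasma cell stages, and Id2 and Id3 are known to restrain them.

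Sites at these 6 genes were taken from 12 lists of anti-STAT3 CUT&RUN peaks. In this assay an antibody guides a nuclease to its target and the released DNA is sequenced. Lists from STAT3 KO cells were among the 12, so a site is not by itself a STAT3 binding site. A site belonged to a gene when a peak of any list overlapped the gene's RefSeq span plus 50000 bp on each side. This gave 25 peaks in 11 sites, of 11227 sites in all. A site is a set of peaks joined in a chain by overlaps of at least 1 bp. Peaks at the ends of a chain need not overlap each other. The lists came from cultured splenic B cells of mice. Every culture ran for 96 h with 1 µg/mL anti-CD40 plus 12.5 ng/mL of IL-4, after which IgG1+ and IgM+ cells were sorted. Then 400000 cells were given anti-CD40 again for 1 h, together with IL-21 at 10 ng/mL or IL-4 at 12.5 ng/mL.

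The groups were STAT3 KO cells with IL-21, STAT3 KO cells with IL-4, wild-type (WT) cells with IL-21 and WT cells with IL-4, each as IgG1+ and IgM+ cells. KO groups had 1 library and WT groups 2. The labels give neither the means by which STAT3 was deleted nor the age or sex of the mice, and do not say whether the 2 libraries of a WT group came from separate animals. P-values over libraries therefore cover the spread between the libraries at hand, and this can be technical. Whether libraries of the 2 isotypes or of the 2 cytokines shared a culture or an animal is likewise not known here. The tests and SDs over libraries pool the isotypes and count each library as separate. The IL-21 arm has no IL-4 in the last hour per the labels, so the gain of IL-21 and the loss of IL-4 cannot be told apart. A peak list holds no measure of RNA or of the deleted gene, so neither the genotype nor the cell type could be checked against markers. The lists used held 648 to 1892 peaks in KO cells, 865 to 2034 in WT cells with IL-21 and 623 to 1455 in WT cells with IL-4. The sequencing depth is unknown.

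The promoters of Id3 and Id2 are shown because peaks of 2 or more libraries lie on or next to them. Each is the run of 250 bases before the RefSeq start of the gene (GRCm38.p6, the assembly of mm10), 5′ to 3′ on the strand of the gene. For Id3 (chr4:136143572-136143821, plus strand) the capitals mark the stretch from the lowest to the highest of 5 peak summits. For Id2 (chr12:25096093-25096342, minus strand) the capitals mark an E-box.
Id3: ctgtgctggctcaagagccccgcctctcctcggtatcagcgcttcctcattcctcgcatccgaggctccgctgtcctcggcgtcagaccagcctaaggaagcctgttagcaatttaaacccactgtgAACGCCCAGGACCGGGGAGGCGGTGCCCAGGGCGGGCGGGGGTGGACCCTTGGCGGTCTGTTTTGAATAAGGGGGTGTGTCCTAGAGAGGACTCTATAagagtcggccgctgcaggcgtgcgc
Id2: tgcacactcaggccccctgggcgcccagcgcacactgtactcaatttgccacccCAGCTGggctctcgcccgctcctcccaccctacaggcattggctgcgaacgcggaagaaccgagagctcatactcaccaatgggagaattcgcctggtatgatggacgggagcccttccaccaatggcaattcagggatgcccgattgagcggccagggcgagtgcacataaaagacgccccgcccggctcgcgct
Both promoters were searched on both strands for TTCNNNGAA, the STAT motif, for the same letters with 1 more N between them, the wider form known for STAT6, and for CANNTG, the E-box, where N is any base. Neither 250-base window held a match to either STAT form. The Id3 window holds all 5 summits of its site, but the summits of the Id2 site lie 462 to 505 bp upstream, outside the Id2 window, and 2 of its 3 peaks do not reach it. The search therefore does not cover the Id2 site, whose sequence was not analysed here. The STAT motif occurs in 7.02% and the wider form in 5.85% of the 32851 RefSeq promoter windows of the same length. The Id2 promoter held 1 E-box, CAGCTG, whose first base lies 196 bp before the start, and the Id3 promoter held none, whereas 66.2% of all windows hold at least 1. The 2 promoters had the same GC content, 62.8%, against a median of 52.4% over all windows.

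Peaks at the 6 genes came mostly from WT cells with IL-21. KO libraries with IL-21 had 0 peaks there, KO libraries with IL-4 had 2 (IgG1) and 1 (IgM). WT libraries with IL-21 had 2 and 7 (IgG1) and 5 and 4 (IgM), and WT libraries with IL-4 had 1 and 0 (IgG1) and 2 and 1 (IgM). As a share of its own list, this was 0% to 0.131% in KO libraries, 0.231% to 0.471% in WT libraries with IL-21 and 0% to 0.154% in WT libraries with IL-4. The ranges of the WT IL-21 and the WT IL-4 shares did not overlap. This rested on peaks on the neighbour gene E2f2, which lies in the window of Id3. Without the sites on E2f2, the shares were 0.0983% to 0.202% in WT libraries with IL-21 and 0% to 0.137% in WT libraries with IL-4, which overlap.

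Of the 11 sites, 8 had a peak in a WT IL-21 library, 3 in a WT IL-4 library and 3 in a KO library. Of the 9 sites found in WT, 1 also had a KO peak, where the share over all 7461 sites found in WT is 4.73%. Of the 8 sites with a WT IL-21 peak, 2 also had a WT IL-4 peak, against 6.04% of the 4305 such sites in the genome, and 6 were found in at least 2 WT IL-21 libraries, against 16.1%. Of these 8 sites, 5 lie on the neighbour gene E2f2, and sites on E2f2 are among the 6 as well. A site is called gained below when each of the 4 WT IL-21 libraries had a peak and none of the WT IL-4 libraries did, and 1 site was gained (1.31% of all sites found in WT). With 3 or 4 WT IL-21 libraries in place of 4, there were 3 such sites (3.52%).

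**Figure D1:**
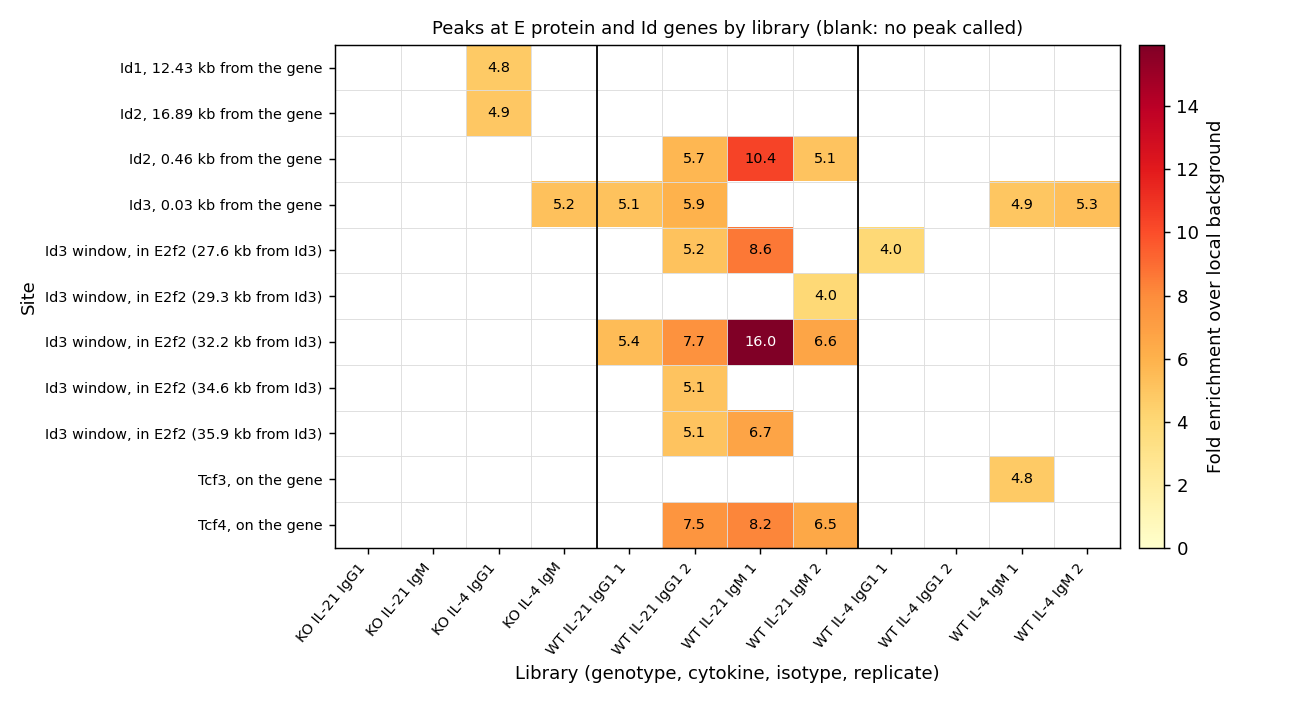
Fold enrichment of each peak over the local background of its own library, for the 11 sites (rows) and 12 libraries (columns: KO, then WT with IL-21, then WT with IL-4); blank cells have no called peak. Values run from 3.96 to 16.0, and the only row filled in all 4 WT IL-21 libraries and nowhere else is a site in E2f2, 32170 bp from Id3.

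Among the inhibitors, Id2 (gene 15902, chromosome 12, 25093799 to 25096092, minus strand), known for roles in lymphocyte development and in innate lymphoid and NK cells, had a site just upstream of its start with IL-21. No KO library and no WT IL-4 library had a peak in this site (25096210 to 25096797). With IL-21 the fold was 5.70 in the second IgG1 library, and 10.4 and 5.09 in the IgM libraries, while the first IgG1 library had no peak. These summits lay 505, 462 and 467 bp upstream of the RefSeq start, within 43 bp of each other. In order of −log10 p, the peak ranked 374 of 1518 in the second IgG1 list, 172 of 2065 in the first IgM list and 291 of 1207 in the second IgM list. The site thus stood within the top 24.6% of each of these lists.

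The heights behind these folds can be read from the lists, since a fold and its −log10 p together fix a whole number of fragments at the summit. At Id2 this gave 22 fragments over a background of 3.04 in the second IgG1 library, 40 over 2.95 in the first IgM library and 26 over 4.31 in the second. The smallest height called anywhere in a list was 10 to 12 fragments, so a missing peak is not a measure of no binding. Fisher's exact test of presence in WT IL-21 against WT IL-4 libraries (3 of 4 against 0 of 4) gave p = 0.143 and an adjusted p of 1 over 7461 sites. Of the 302 sites found by the other 3 WT IL-21 libraries, the first IgG1 library lacked 135 (44.7%), so its lack of a peak at Id2 is common for that list. A second Id2 site, 16895 bp from the gene (25076854 to 25077085), was found only in the KO IgG1 library with IL-4, with a fold of 4.92, and lay closer to the neighbour Kidins220.

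**Figure D2:**
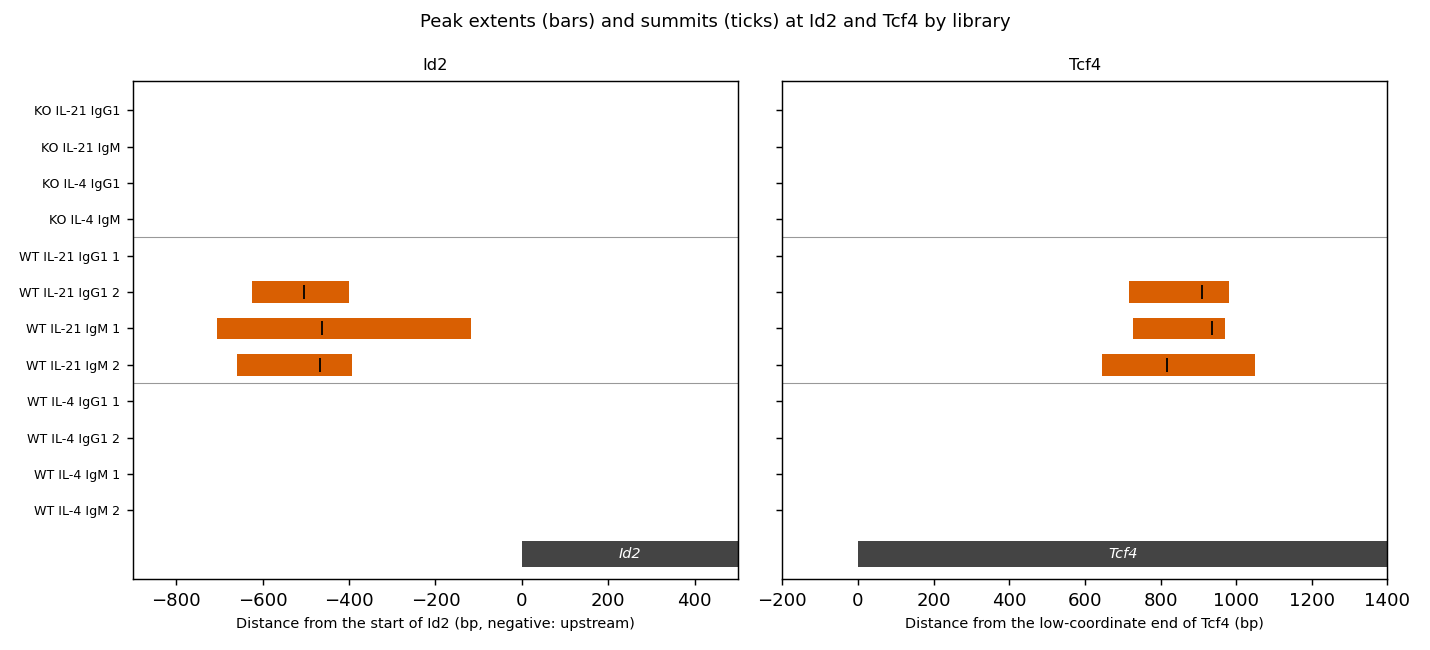
Peak extents (bars) and summits (ticks) by library, in bp from the start of Id2 (left, negative values upstream) and from the low-coordinate end of Tcf4 (right); dark boxes are the gene spans. At both genes the second IgG1 and both IgM libraries of WT cells with IL-21 have a peak at nearly the same place, and the other 9 libraries have none.

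Id3 (gene 15903, chromosome 4, 136143822 to 136145392, plus strand), known as a brake on E2A in B cells and mutated in human Burkitt lymphoma, had a site across its start. It differed from the Id2 site in which libraries held it. The KO IgM library with IL-4 had a peak there, with a fold of 5.21. With IL-21, the 2 IgG1 libraries of WT cells had folds of 5.14 and 5.93, and neither IgM library had a peak. With IL-4, neither IgG1 library of WT cells had a peak, and the 2 IgM libraries had folds of 4.93 and 5.34. In WT cells, peaks were thus called in IgG1 libraries in the IL-21 arm and in IgM libraries in the IL-4 arm. Calls were not restricted to cells with STAT3. As at Id2, a missing peak is not a measure of no binding.

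All 5 summits at Id3 lay upstream of the start, at 114 bp in the KO library, at 123 and 26 bp in the WT IgG1 libraries with IL-21 and at 51 and 50 bp in the WT IgM libraries with IL-4. They fall within the capitals of the Id3 sequence above. The heights were alike, with 16 fragments in the KO library, 16 and 19 with IL-21 and 15 and 18 with IL-4. In order of −log10 p the peak ranked 284 of 796 in the KO list, 351 of 897 and 412 of 1518 in the WT IL-21 lists and 408 of 1490 and 136 of 883 in the WT IL-4 lists. No other site of the 11227 was present in exactly these 5 libraries, but 10180 of the 11227 were found in 1 library and could not be. Fisher's exact test gave p = 1 both raw and adjusted for WT IL-21 against WT IL-4 (2 of 4 in each), and p = 0.576 for KO against WT (1 of 4 against 4 of 8, adjusted p = 1 over 11227 sites).

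The Id3 window also held 5 sites on the body of E2f2, an E2F transcription factor of the cell cycle whose span (136172274 to 136196057, plus strand) begins 26882 bp beyond the end of Id3. They lay between 136172610 and 136181425, a stretch of 8816 bp. No KO library had a peak in this stretch. With IL-21, WT IgG1 libraries had 1 and 4 peaks and WT IgM libraries 3 and 2, against 1 and 0 in WT IgG1 libraries and none in WT IgM libraries with IL-4. E2f2 had at least 1 WT IL-21 peak at each of the 5 sites. As many or more such sites on a gene's span were found for 9 of 21883 protein-coding genes (0.0411%, E2f2 included, with no allowance for gene length), and E2f2 was singled out after its values were seen.

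**Figure D3:**
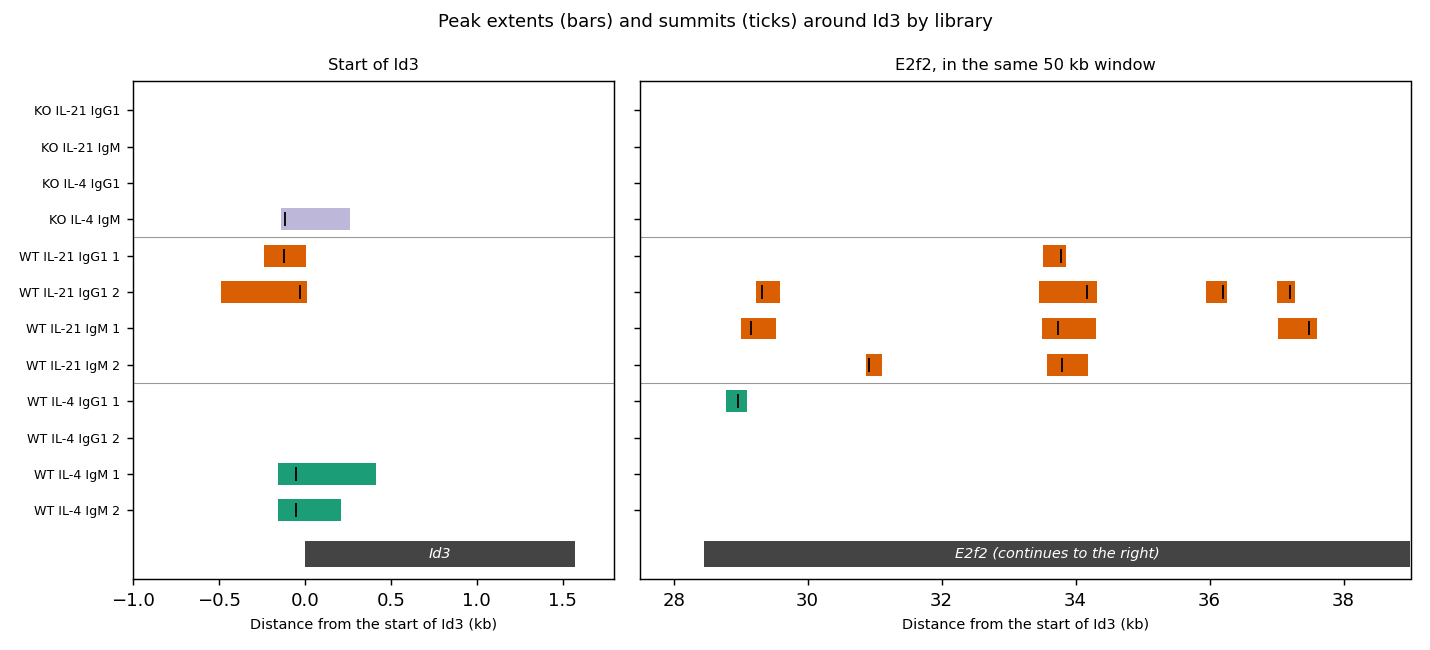
Peak extents (bars) and summits (ticks) by library, in kb from the start of Id3, at Id3 (left) and on E2f2 (right); dark boxes are gene spans. The start of Id3 has peaks in 5 libraries including a KO library, whereas the stretch on E2f2 has peaks in all 4 WT IL-21 libraries, 1 WT IL-4 library and no KO library.

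The strongest of these sites (136177269 to 136178138, 32170 bp from Id3) was the one gained site. No KO library and no WT IL-4 library had a peak there. With IL-21 the fold was 5.43 and 7.73 in the WT IgG1 libraries, and 16.0 and 6.63 in the WT IgM libraries, a mean of 8.94 ± 4.77 (SD, n = 4). The heights were 21 and 38 fragments in the IgG1 libraries, and 52 and 32 in the IgM libraries. By −log10 p the peak ranked 190 of 897, 149 of 1518, 102 of 2065 and 181 of 1207 in these lists, so it lay within the top 21.2% of each. The summits of 3 libraries fell within 61 bp, and that of the second IgG1 library lay 371 bp beyond them. Fisher's exact test gave p = 0.0286 (4 of 4 against 0 of 4), the smallest value possible here, and an adjusted p of 1 over 7461 sites. No site passed adjustment, and 98 had an unadjusted p under 0.05, whereas passing would need most of the 7461 sites at this smallest p. For KO against WT (0 of 4 against 4 of 8) Fisher's exact test gave p = 0.208 and an adjusted p of 0.947. That comparison pools the WT IL-4 with the WT IL-21 libraries, so no site held by WT IL-21 libraries alone could give a smaller p. It therefore cannot decide whether presence with IL-21 differs between KO and WT cells.

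In all, 92 sites were present in the 4 WT IL-21 libraries and nowhere else, as this one was. By mean −log10 p in those libraries it ranked 44 of the 92. The 5 at the top lay at or near Gen1, Gsk3a, Rabggta, Socs3 and Crtc2, each with a mean fold of 18.1 or more. The likeness is of presence over 12 libraries alone.

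The other sites on E2f2 were less regular. The site nearest the E2f2 start (136172610 to 136173415) had folds of 5.16 in the second IgG1 library and 8.61 in the first IgM library with IL-21, and 3.96 in the first IgG1 library with IL-4. Its summits lay 861, 697 and 502 bp into the gene. The IL-4 peak and the second IgG1 IL-21 peak did not overlap, and were joined through the peak of the first IgM library. The site furthest from Id3 (136180832 to 136181425) had folds of 5.06 in the second IgG1 library and 6.71 in the first IgM library, both with IL-21. Its summits lay 234 and 523 bp past a second RefSeq start of E2f2 (136180782). The remaining 2 sites were each found in 1 WT IL-21 library, at folds of 3.97 and 5.06.

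Id1 (gene 15901, chromosome 2, 152736251 to 152737410), the Id gene best known as a target of BMP signalling, had no peak in any WT library within its window. Its only site (152723716 to 152723934, 12426 bp from the gene) came from the KO IgG1 library with IL-4, at a fold of 4.80. Just beyond the window, 51889 bp from Id1, lay a peak of the first WT IgM library with IL-21 (fold 4.50). At 72632 bp both WT IgM libraries with IL-21 had a peak, with folds of 9.18 and 5.29. All of these lie on Bcl2l1, which encodes the survival protein Bcl-xL. That gene held 5 peaks in 4 sites, each from a WT IgM library with IL-21. The site furthest from its member gene but still inside a window was 1 of those on E2f2, whose 2 peaks began 35440 and 35450 bp from Id3.

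Among the E proteins, Tcf4 (gene 21413, chromosome 18, 69343429 to 69687967), the E protein best known from plasmacytoid dendritic cells and also used by B cells, had 1 site (69344075 to 69344478), inside the gene. No KO library and no WT IL-4 library had a peak there. With IL-21 the fold was 7.50 in the second IgG1 library, and 8.19 and 6.54 in the IgM libraries, a mean of 7.41 ± 0.83 (SD, n = 3), and the first IgG1 library had none. These are the libraries that held the Id2 site, and 106 of the 11227 sites share this presence. The heights were 32, 30 and 35 fragments. By −log10 p the peak ranked 184 of 1518, 296 of 2065 and 163 of 1207, which is higher in the list than the Id2 peak in the second IgG1 and the second IgM library and lower in the first IgM library.

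The Tcf4 summit with the best −log10 p lay 937 bp from the low-coordinate end of the gene, and the 3 summits lay within 120 bp. No site was found elsewhere in the 344539 bp of Tcf4. Fisher's exact test gave p = 0.143 (3 of 4 against 0 of 4) and an adjusted p of 1.

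Tcf3 (gene 21423, chromosome 10, 80409541 to 80433976, minus strand), which encodes E12 and E47, had no KO peak and no WT IL-21 peak in its window. The nearest WT IL-21 peak lay 104522 bp away. Its 1 site (80433407 to 80433761) came from the first WT IgM library with IL-4, at a fold of 4.78, rank 216 of 1490 and a height of 21 fragments. The summit fell 16 bp past the RefSeq start. The 250 bases before that start held 1 E-box, 54 bp before it, and no match to either STAT form, and had a GC content of 59.6%. They are not printed, since the site was found in 1 library. Tcf12 (gene 21406, chromosome 9, 71844252 to 72111893, minus strand) had no peak of any library in its window, and the nearest lay 173677 bp from the gene. Over all protein-coding genes, 56.1% had a peak of any library in the same window, against 5 of the 6 genes here.

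**Figure D4:**
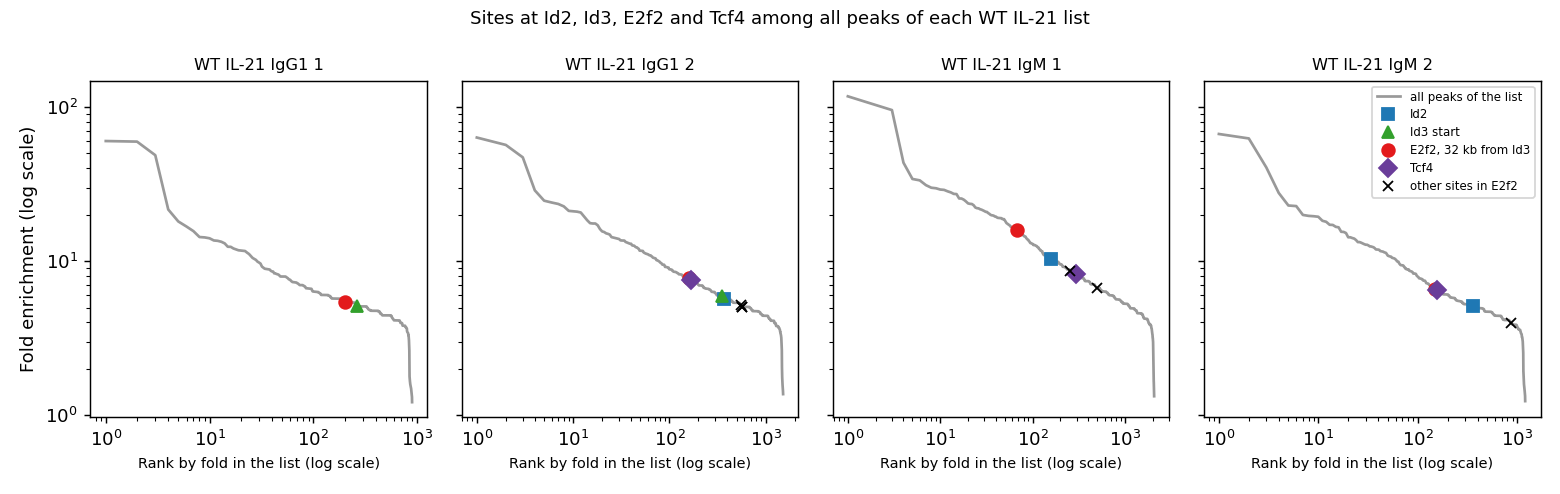
Fold enrichment against rank by fold in each of the 4 WT IL-21 lists (both axes log-scaled); the grey line is every peak of the list and symbols are the sites at Id2, Id3, E2f2 and Tcf4. The highest symbol is the E2f2 site in the first IgM library (fold 16.0, rank 67 of 2065), below the steep head of each list, which reaches 60.1 to 117.

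By gene, 1 of the 6 windows held a gained site (1.38% of 21883 protein-coding genes), and 3 held a site of 3 or 4 WT IL-21 libraries without any WT IL-4 peak (3.18%). The 3 were those of Id2, Id3 and Tcf4, and at Id3 the site is the one on E2f2. The 6 genes were chosen with earlier results of these data known. The shares make no allowance for gene length, which is 344539 bp for Tcf4. A WT IL-21 peak of any kind was in 3 windows (31.3% of all genes). In IgG1 cells, 2 of 7 sites were held by both IL-21 libraries and neither IL-4 library (5.54% of sites found in WT IgG1 cells), and in IgM cells 3 of 8 (6.64%). The reverse was found at 0 sites in IgG1 cells (0.0306%) and at 1 in IgM cells (0.206%), the start of Id3. That site was the only one of all found in WT with IL-21 peaks alone in both replicates of IgG1 cells and IL-4 peaks alone in both replicates of IgM cells (0.0134%), and the opposite was seen at no site (0.0%). Most sites could show neither pattern, since 10180 of all 11227 were found in 1 library.

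Other genes of the pathway were read in the same windows, where 31.3% of all protein-coding genes had a WT IL-21 peak and 1.38% a gained site. Among 12 partners, inhibitors and corepressors of E proteins, 4 had a WT IL-21 peak and 1 a gained site. This was Cbfa2t3 (ETO2), a corepressor recruited by E proteins, with a mean fold of 4.70 ± 1.56 (SD, n = 4) at 13824 bp from the gene, and 1 KO library also had a peak there. Among 20 B lineage genes known as targets of E proteins, 14 had a WT IL-21 peak and 2 a gained site. These were Irf8, a transcription factor of B cells and myeloid cells, with a mean fold of 6.57 ± 1.90 (SD, n = 4) at a site 34286 bp from the gene and nearer to Cox4i1 (27863 bp), and Bcl6, with 15.7 ± 9.90 (SD, n = 4) at a site within the gene. Among 13 regulators upstream of Id genes, 6 had a WT IL-21 peak and 0 a gained site. Egr1, an immediate early factor known to induce Id3 in lymphocytes, had a site of 3 WT IL-21 libraries and no WT IL-4 or KO library, at 4.50 ± 1.15 (SD, n = 3). Among marker genes, a WT IL-21 peak was in the window of 5 of 5 B cell genes, 2 of 5 T and NK cell genes and 2 of 4 myeloid genes, and none of these had a gained site.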

How the data were processed

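Per the labels, anti-STAT3 CUT&RUN was done on 12 libraries (8 WT, 4 KO). Input was not analysed here. Per the submitters' processing notes, the build was mm10 and the tools included MACS2 2.2.7.1, Bowtie2 2.4.1, deepTools 3.5.1 and Trimmomatic 0.39, with no roles stated. How peaks were controlled and whether the yeast spike-in was used is not given in the sources used here. A peak list was deposited per library. Its fold (a ratio over local background), −log10 of p and of q, and score are the authors' values. Ranks stay within a list, but folds and −log10 p were also averaged over libraries, with no adjustment for depth. The score repeats the −log10 p and was not used.

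Peaks off chromosomes 1 to 19, X and Y (395) were left out. The rest were merged where they overlapped by at least 1 bp. Ranks were taken over the whole deposited list, ties at the better rank. Gene spans and promoters came from RefSeq on GRCm38.p6, which gave promoters for 4 of the 6 genes. Its table has no exons. The sequence at the Id2 summits and under the Tcf4, E2f2 and Id1 sites was not analysed here. A pileup k and background b were solved from fold = (k + 1)/(b + 1) and the Poisson p, with a match within 0.001 for 99.0% to 100.0% of peaks with a −log10 p under 30. Presence was compared with Fisher's exact test (two-sided) in each region, all regions entering, with Benjamini-Hochberg adjustment (threshold 0.05). All 6 genes were named, with every site. The members, lists and tests were chosen with earlier results of these data known. The merging, test and pileup steps were tested on simulated data. Python 3.11.15, pandas 2.3.3 and SciPy 1.17.1 were used.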

Additional observations from a re-analysis of the deposited data

Results flagged for a closer look

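The site at the start of Id3 was picked out because IL-21 and IL-4 went with opposite presence in the isotypes. In IgG1 cells of WT mice both libraries with IL-21 (2 of 2) and neither with IL-4 had the peak, and in IgM cells neither with IL-21 and both with IL-4 (2 of 2) had it. This difference was not tested. Of the 7461 sites found in WT it was 1 with this pattern (0.0134%), and 0 sites showed the opposite one. Most sites could show neither, since 10180 of all 11227 were found in 1 library. Its heights of 15 to 19 fragments are near the smallest called in any list (10 to 12), and a KO library held the peak too. Whether height near the threshold bears on the pattern was not tested. A check of 5 sets of 4 libraries picked out no library as far from the other 3. It does not show that libraries were alike at each site or in list length, as WT IL-21 lists held 865 to 2034 peaks. At the gained site on E2f2 the fold was 16.0 in the first WT IgM library with IL-21 and 5.43 to 7.73 in the other WT IL-21 libraries.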

How the results depend on the processing

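One site, on E2f2, was gained with IL-21, in 1 gene window, that of Id3. Both counts were 0 when peaks were joined only by summits within 250 bp, since the second IgG1 summit then stood apart, and 0 with a window of 10000 bp, which leaves E2f2 out. Both were 3 with at least 3 of 4 WT IL-21 libraries. Without 1 WT library they ran from 1 to 3, and 3 came without the first IgG1 IL-21 library, which adds the Id2 and Tcf4 sites. Both stayed at 1 with a −log10 q of at least 2 or of at least 5, the 5 being chosen after seeing the data, a fold of at least 4, 623 peaks from each list or a window of 100000 bp. Both were also 0 without the sites on E2f2, an alternative likewise chosen after seeing the data. The sites with a WT IL-4 or KO peak, 5 of 11, were 2 of 7 with a −log10 q of at least 5, 2 of 4 with a window of 10000 bp, 4 of 7 with 623 peaks from each list and 4 of 6 without E2f2. Peaks in the windows, 25 in all, were 12 with 10000 bp and 14 without E2f2.

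No site passed the adjusted Fisher's exact tests under any alternative run. Of 11227 sites, 25 had an unadjusted p under 0.05 for KO against WT. With a replicate block (pairs of the same isotype and number) 0 sites passed, and 0 had an unadjusted p under 0.05, as the smallest p possible is 0.125. The numbers were not taken as pairing the libraries in the main tests. Deviations of same-numbered libraries correlated at −0.04 to 0.11 over 818 sites. These rest on presence of called peaks, so they cannot decide whether same-numbered libraries share an animal or a culture. With 4 WT libraries on each side the smallest p of Fisher's exact test is 0.0286, and the depth of the lists is unknown.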
